A study of Mus musculus with 6 samples.

Results

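Of 9 genes of homologous recombination and of replication protein A (RPA), the annotation of the array names 8, Brca1, Bard1, Palb2, Brca2, Rad52, Rad54l, Rpa1 and Rpa2, through 17 of its 45037 probe sets. The members were taken by gene symbol, and the ninth, Rbbp8, is named only. Of the 17 probe sets, 11 reached a signal of 100 on at least 1 array and were tested, and these belong to 7 genes. The arrays came from 3 independently derived pre-B cell lines of WT mice expressing an Eμ-Bcl2 transgene, which in lymphoid cells counters apoptosis. The lines were transformed with the v-abl kinase and held for 48 hours in 3 μM STI-571 (imatinib), which blocks that kinase and arrests the cells before S phase. Each line, here numbered by the replicate number in the labels, gave 1 array without irradiation (0 Gy, mock) and 1 array collected 2 hours after 1 Gy of γ-rays, so that n = 3 lines per dose throughout. Transformation, transgene and drug are shared by both doses, and each line stands for 1 derivation, and the tests are read against the variation from line to line.

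Homologous recombination repairs a broken chromosome by copying an intact partner, usually the sister chromatid, and therefore acts mainly in S and G2 phases. After the break ends are cut back, RPA, a heterotrimer of Rpa1, Rpa2 and Rpa3, coats the exposed single strand. Brca1 with its partner Bard1, the bridging protein Palb2 and Brca2 then load the recombinase in place of RPA. Rad54l helps the recombinase invade the partner, and Rad52 anneals complementary strands. RPA is also needed for every round of DNA replication and for nucleotide excision repair. In arrested lymphocyte precursors, breaks are mostly joined end to end, and many recombination genes are known to be transcribed under E2F control as cells enter S phase.

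RefSeq start-site windows are shown for the 3 RPA subunits, of which Rpa1 and Rpa3 fell after irradiation, and for Brca1 and Brca2, the best known recombination members, so that their promoters can be read beside the values. Each runs from 250 bases before to 50 bases after the annotated start, in build GRCm38.p6 and 5′ to 3′ on the strand of the gene. Capitals mark CCAAT boxes (CCAAT or its reverse complement ATTGG) and E2F-type matches (the letters TTCGCGC, or the letters TTGGCGC, or the letters TTCCCGC, or else TTGCCGC, on either strand). In these 5 windows no CCAAT box overlaps an E2F-type match.
Rpa1, chr11:75348334-75348633, minus strand: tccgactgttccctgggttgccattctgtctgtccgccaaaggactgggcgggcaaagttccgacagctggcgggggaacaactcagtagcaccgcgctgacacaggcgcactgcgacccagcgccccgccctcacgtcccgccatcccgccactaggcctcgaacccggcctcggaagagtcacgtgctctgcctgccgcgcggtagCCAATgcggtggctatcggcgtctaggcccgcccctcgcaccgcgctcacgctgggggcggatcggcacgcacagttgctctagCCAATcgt
Rpa2, chr4:132768110-132768409, plus strand: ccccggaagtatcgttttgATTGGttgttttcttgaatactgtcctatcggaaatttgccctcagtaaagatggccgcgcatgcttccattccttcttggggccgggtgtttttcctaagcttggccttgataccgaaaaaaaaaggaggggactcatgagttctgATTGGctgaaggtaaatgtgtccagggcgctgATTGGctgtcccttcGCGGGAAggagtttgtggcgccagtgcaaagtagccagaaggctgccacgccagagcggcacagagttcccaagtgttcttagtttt
Rpa3, chr6:8259092-8259391, minus strand: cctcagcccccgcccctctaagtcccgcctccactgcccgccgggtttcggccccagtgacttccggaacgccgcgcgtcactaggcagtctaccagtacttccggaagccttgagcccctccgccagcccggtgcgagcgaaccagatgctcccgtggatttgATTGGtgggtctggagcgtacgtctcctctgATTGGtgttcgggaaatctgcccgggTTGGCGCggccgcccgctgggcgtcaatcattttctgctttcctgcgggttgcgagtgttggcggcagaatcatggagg
Brca1, chr11:101551906-101552205, minus strand: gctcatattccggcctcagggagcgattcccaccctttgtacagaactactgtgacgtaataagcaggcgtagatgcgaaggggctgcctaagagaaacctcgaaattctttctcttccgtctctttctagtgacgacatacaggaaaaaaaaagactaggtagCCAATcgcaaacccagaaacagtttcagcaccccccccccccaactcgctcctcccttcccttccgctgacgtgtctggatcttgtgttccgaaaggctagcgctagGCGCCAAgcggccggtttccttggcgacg
Brca2, chr5:150522371-150522670, plus strand: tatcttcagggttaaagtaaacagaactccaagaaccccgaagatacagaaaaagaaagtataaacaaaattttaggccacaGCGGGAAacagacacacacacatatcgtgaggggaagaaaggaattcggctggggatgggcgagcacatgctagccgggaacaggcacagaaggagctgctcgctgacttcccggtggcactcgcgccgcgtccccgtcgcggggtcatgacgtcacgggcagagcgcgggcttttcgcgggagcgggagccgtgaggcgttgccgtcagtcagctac
The window of Rpa1 holds 2 CCAAT boxes, that of Rpa2 holds 3 and that of Rpa3 holds 2. An E2F-type match is present for Rpa2, Rpa3, Brca1 and Brca2 and not for Rpa1. Of the 8 members with a window, 5 hold a CCAAT box and 5 an E2F-type match in their first listed window. Of all 27025 genes in the RefSeq table, 41.1% and 10.9% hold one in any of their windows. The letters GGGCGG (GC box) were found for 5 of the 8 members against 38.2% of genes. The letters TTTGAA were found for 1 of the 8 against 20.2%. A match of letters is a description of the window and shows no binding.

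The arrays held the labelled cell type. All 9 pre-B cell markers with a probe set reached 100, among them Cd79b, Vpreb1, Igll1 and Pax5, and their summed signal was 100530 to 106114 on mock arrays and 79348 to 107330 on irradiated arrays. Of the markers of other cells, 0 of 5 T cell genes, 0 of 3 erythroid genes, 1 of 7 myeloid genes (Itgam, 130 to 342) and 1 of 5 stromal and endothelial genes (Pecam1, 882 to 1425) did so, and their summed signals were 41.4 to 133, 15.8 to 45.2, 273 to 482 and 1016 to 1512. The myeloid sums were 273 to 349 on mock and 376 to 482 on irradiated arrays and the stromal sums 1390 to 1512 and 1016 to 1142, and their part in the results was not tested. In these bulk samples, fewer cells with a transcript and less of it per cell cannot be told apart. Signals of 100 or more were reached by 41.7% to 43.8% of probe sets on an array. The 3′ to 5′ signal ratio for beta-actin, which reads RNA integrity, was 1.26 to 1.38 on irradiated arrays and 1.40 or above on mock arrays, and its part in the results was not tested. For Gapdh the same ratio overlapped between doses, at 0.785 to 0.800 on irradiated and 0.768 to 0.900 on mock arrays.

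Rpa1, the large subunit of RPA that holds most of its contacts with single-stranded DNA, fell after 1 Gy in all 3 lines. On its brighter probe set (1437309_a_at) the mock signals of lines 1, 2 and 3 were 4839, 3610 and 4115, and the irradiated signals were 2007, 1754 and 1734. All 3 irradiated values lay below all 3 mock values. Means were 4188 ± 618 and 1832 ± 152 (SD, n = 3), and the fitted log2 fold change was -1.19 (standard error of 0.16, adjusted p = 0.0273, limma), or 43.9% of the mock level. The other probe set (1423293_at) gave 1703, 1531 and 1550 in mock lines 1 to 3, and after irradiation 613, 625 and 708. Its mean fell from 1595 ± 94.1 to 649 ± 51.7 (log2 fold change -1.30 with a standard error of 0.13, adjusted p = 0.0175, limma), and its groups did not overlap either. The log2 change within a line was -1.04 to -1.27 on the brighter and -1.13 to -1.47 on the other probe set. These were the only 2 of the 11 tested member probe sets that passed (an adjusted p under 0.05, Benjamini-Hochberg over all probe sets tested, here named a call; 0 rose, 2 fell), against 4.48% of all 21762 probe sets tested (1.93% rose, 2.55% fell). An unadjusted p under 0.05 was reached with lower signals by 4 of the 11 and with higher signals by 0, against 13.7% and 9.28% of all probe sets. Signals were lower in 3 of 3 lines for 9 of the 11 and higher in 3 of 3 for 2, against 34.5% and 24.7%. The 11 belong to 7 genes, and 2 (1 of Brca1 and that of Rad54l) had passed the filter through mock arrays alone. These counts are therefore no evidence on the members together. With any 1 of the 6 arrays left out, the log2 fold changes of Rpa1 stayed between -1.08 and -1.36, and neither probe set passed the test (adjusted p of 0.0601 to 0.0829 and 0.0675 to 0.0956, limma). The same held without a filter on dim probe sets (adjusted p of 0.124 and 0.167, limma). Few probe sets of any gene passed in these fits, 0 to 94 of 21762 with an array left out and 1 of 45037 without the filter.

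**Figure D1:**
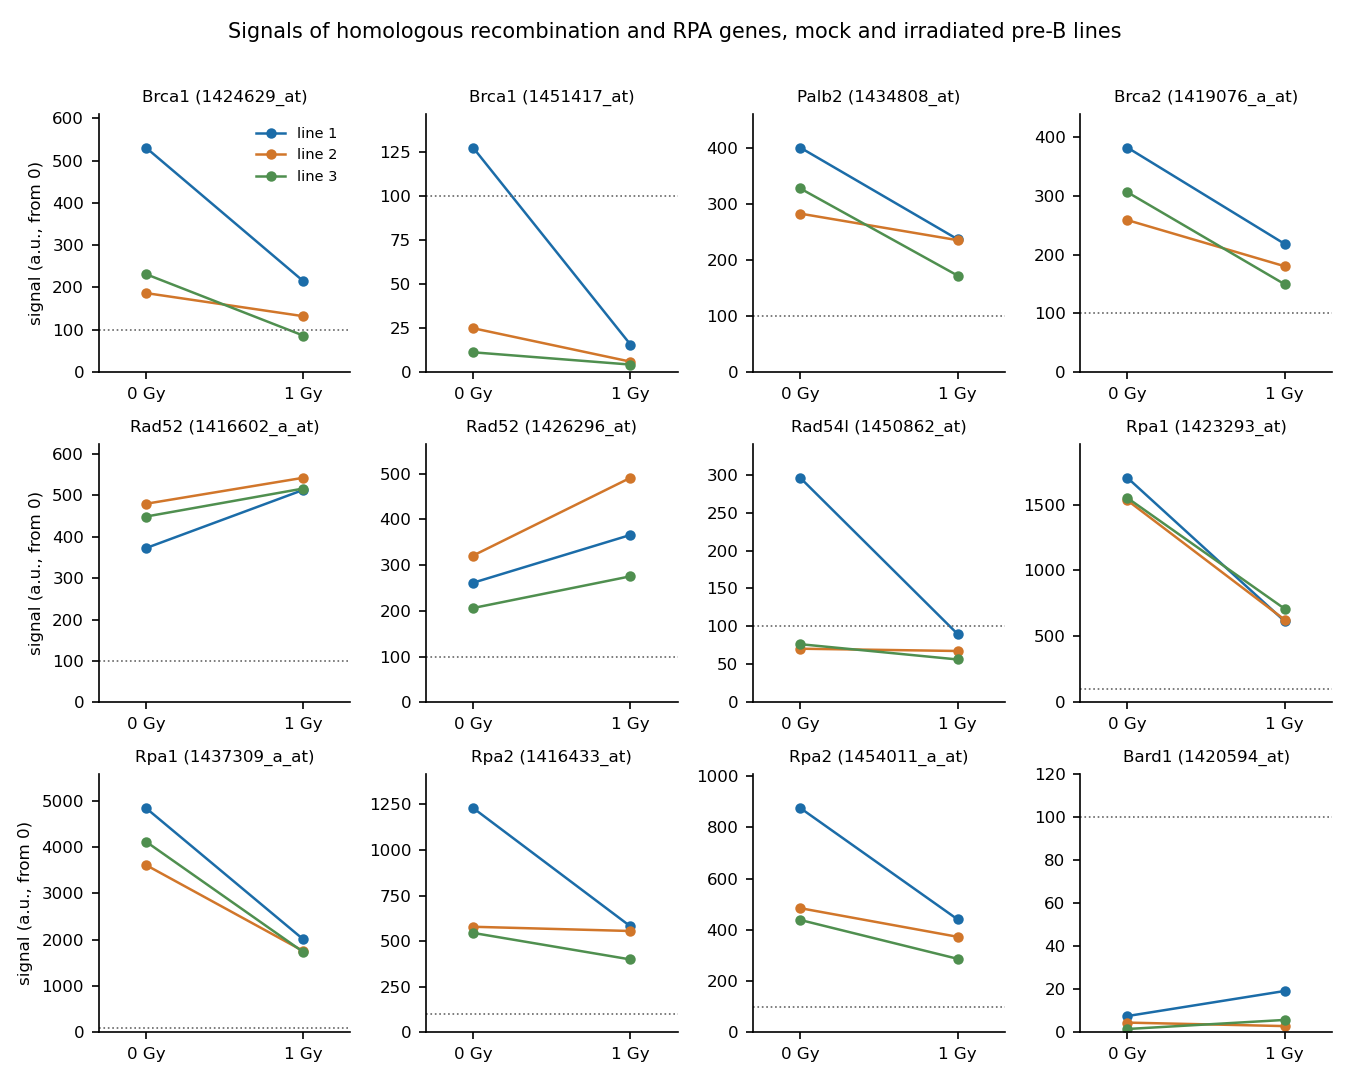
Signals in arbitrary units (vertical axis, linear from 0 with its own range in each panel, dotted line at 100) of the 11 tested member probe sets and of Bard1 by dose in Gy (horizontal axis, 0 and 1), where a coloured trace connects both doses of a cell line. The 3 traces of Rpa1 fall side by side, whereas line 1 (blue) starts far above lines 2 and 3 for Brca1, Rad54l and Rpa2.

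Of the other subunits of RPA, Rpa3 passed the test and Rpa2 did not. Rpa3, the small subunit, belongs to the further pathway genes described below and fell from signals of 1979, 1580 and 2053 in mock lines 1 to 3 to 930, 1079 and 812. Its groups did not overlap, and its log2 fold change was -0.99 (standard error 0.18, adjusted p = 0.0430, limma). Rpa2, the middle subunit that is phosphorylated when cells sense damage, had mock signals of 1230, 579 and 545 and irradiated signals of 581, 556 and 400 on its brighter probe set (1416433_at). Mock line 1 was 2.12-fold mock line 2 and 2.26-fold mock line 3, and the irradiated values overlapped theirs. The log2 fold change was -0.53 with a 95% interval of -1.41 to 0.35 (adjusted p = 0.445, limma), and it was -0.15 without the mock array of line 1. The other probe set (1454011_a_at) had 876, 485 and 439 in the mock lines and 441, 373 and 287 in the irradiated lines, with a log2 fold change of -0.66 and an interval of -1.44 to 0.12 (adjusted p = 0.285, limma), and -0.35 without mock line 1. Both were lower in 3 of 3 lines. The log2 change of Rpa1 minus that of Rpa2 was -0.19, -0.98 and -0.80 in lines 1, 2 and 3, a mean of -0.66 ± 0.42 (SD, n = 3, exact permutation test over arrays, two-sided, p = 0.2, where 0.1 is the smallest that 3 arrays against 3 allow). Rpa1 and Rpa3 differed by -0.19 ± 0.29 (exact p = 0.4) and Rpa3 and Rpa2 by -0.46 ± 0.44 (exact p = 0.3). A total of 4 pairs of genes were compared in this way, and each p adjusted over them was 0.4. The permutation leaves out the pairing by line, so that its p does not measure the spread over lines given beside it.

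Brca2 and Palb2, which act together in loading the recombinase, had lower signals after irradiation in all 3 lines. Brca2 gave 382, 259 and 306 in mock lines 1 to 3 and 218, 180 and 149 after 1 Gy, and the 2 groups did not overlap. Its log2 fold change was -0.79 (standard error 0.22, interval -1.33 to -0.25), which did not pass without the line in the model (adjusted p = 0.105, limma) but did so once the line was added as a block, which compares the doses within each line (adjusted p = 0.0328, limma). Palb2 gave 402, 283 and 328 in the mock lines and 238, 236 and 173 in the irradiated lines, again without overlap. Its log2 fold change was -0.65 (standard error 0.21, interval -1.16 to -0.14), with an adjusted p of 0.138, and 0.0656 with the block (limma). Among the 11 tested member probe sets, 4 had lower values without overlap between doses (2 of Rpa1, Brca2 and Palb2), against 17.1% of all probe sets tested, and 1 had higher values without overlap (Rad52), against 12.8%. With the block, 5 of the 11 fell and 1 rose, against 11.5% and 6.78% of all probe sets (18.3% together). Of the 11, 2 had passed the filter through mock arrays alone, so that these counts are no evidence on the members together.

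Brca1, the scaffold and ubiquitin ligase subunit at the head of the pathway, was uneven between lines. Its brightest probe set (1424629_at) had mock signals of 531, 187 and 232 and irradiated signals of 215, 132 and 86.2. The value of mock line 1 was 2.84-fold that of line 2 and 2.29-fold that of line 3, and irradiated line 1 lay within the range of the mock arrays. Its log2 fold change was -1.08 (standard error 0.50, adjusted p = 0.272, limma), which passed with the line as a block (adjusted p = 0.0395, limma). Without the mock array of line 1 it was -0.63, and without both arrays of that line it was -0.96. A dimmer probe set (1451417_at) reached 100 only on the mock array of line 1, with 128, 24.9 and 11.2 in the mock lines and 15.6, 5.90 and 4.23 after irradiation. Its log2 fold change of -2.17 (adjusted p = 0.255, and 0.0226 with the block, limma) shrank to -0.12 with signals under 100 set to 100 (adjusted p = 0.658, limma). The other 2 probe sets of Brca1 stayed at 59.5 or below. Bard1, its partner, was at 1.59 to 7.61 on mock and 2.94 to 19.3 on irradiated arrays, under the level at which probe sets were tested.

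Rad54l, a motor protein that remodels the recombinase filament, was near background outside mock line 1. Of its 4 probe sets, 1 (1450862_at) was tested, with mock signals of 296, 70.6 and 76.5 and irradiated signals of 89.9, 67.5 and 56.4. It passed the filter through the mock array of line 1 alone. Its log2 fold change was -0.74 with an interval of -2.17 to 0.69 (adjusted p = 0.516, and 0.201 with the block, limma), and -0.07 without that array. The other 3 were under 100 on all 6 arrays and likewise highest on the mock array of line 1, at 88.5, 80.2 and 55.9.

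Rad52, the annealing protein, was the only member with higher signals after 1 Gy in all 3 lines. Its brighter probe set (1416602_a_at) gave 373, 480 and 449 in the mock lines and 513, 543 and 517 in the irradiated lines, without overlap. The log2 fold change was 0.28 (standard error 0.15, interval -0.08 to 0.65, adjusted p = 0.328, and 0.182 with the block, limma). The second (1426296_at) gave 261, 321 and 206 at 0 Gy and 366, 491 and 276 at 1 Gy, and every line was higher although the groups overlapped. Its log2 fold change of 0.51 (adjusted p = 0.341, limma) passed with the block (adjusted p = 0.0489, limma), and it was 0.30 without the irradiated array of line 2. The direction was upward on both probe sets after quantile normalization and after scaling to a common median. Within lines 1, 2 and 3 the log2 change of Brca2 minus that of Rad52 was -1.27, -0.70 and -1.24, a mean of -1.07 ± 0.32 (SD, n = 3). The exact permutation test over arrays, which leaves out the pairing by line, gave p = 0.1 (two-sided). This is the smallest p that 3 arrays against 3 allow, and it was 0.4 adjusted over the 4 pairs.

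**Figure D2:**
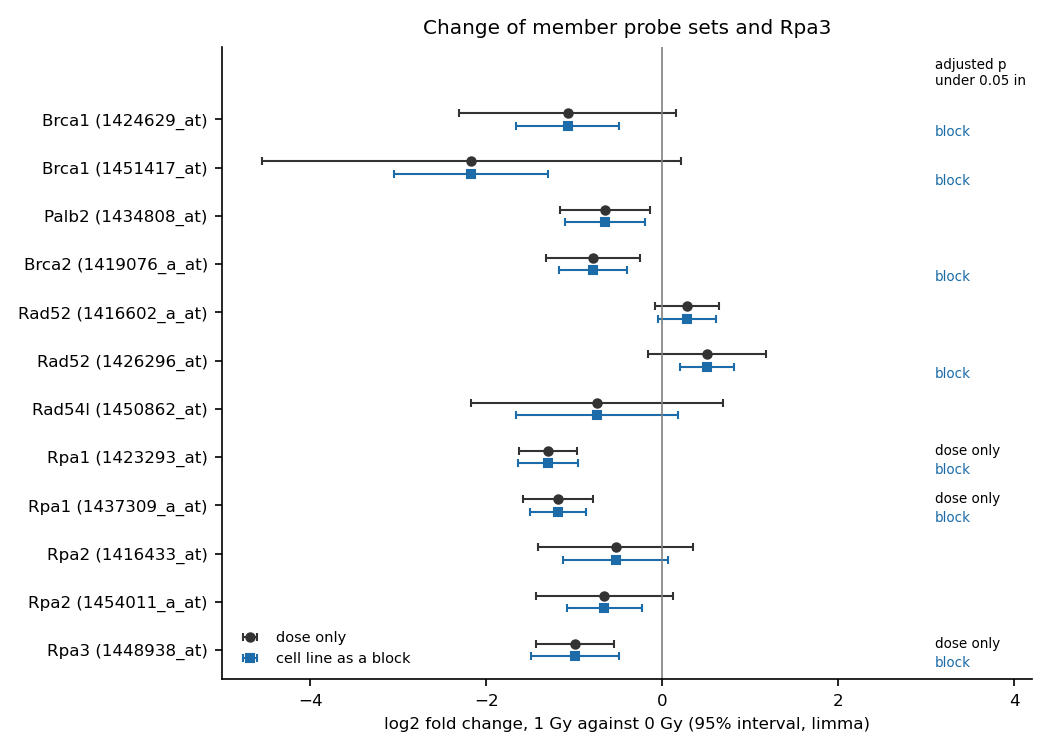
Log2 fold changes at 1 Gy against 0 Gy (horizontal axis, bars for 95% intervals from limma) of the 11 tested member probe sets and Rpa3 (vertical axis), fitted with dose only (black circles) or with lines as blocks (blue squares). The right margin names the fits with an adjusted p under 0.05, both for Rpa1 and Rpa3 and the block alone for 2 probe sets of Brca1 and 1 each of Brca2 and Rad52.

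Mock line 1 stood apart in genes of DNA replication and mitosis, and the members differed in how far they shared this. All 24 measured genes of that list had their highest mock signal in line 1, against 30.3% of all 9678 genes tested. Among them are Mcm2 of the replicative helicase and Ccna2, the cyclin of S phase. Of the 24, 4 (Cdc6, Tyms, Ccne1 and Ccne2) reached 100 on the mock array of line 1 alone, so that the filter had fixed their place. The median excess of line 1 over the mean of lines 2 and 3 on the log2 scale was 2.19. The summed signal of the list was 59743 in mock line 1, 23796.5 in mock line 2 and 16064 in mock line 3, and after irradiation it was 30618, 21403 and 15276.5. Median changes within lines 1, 2 and 3 were -1.32, -0.35 and -0.12 on the log2 scale. None of the 24 passed limma's test without the block, against 5.31% of all genes tested. At an unadjusted p under 0.05 there were 0 lower and 0 higher, against 16.7% and 8.36% of all genes. Against 14.7% and 6.61% of all genes, 5 fell and 0 rose with the block. By log2 fold change the leading 4 were Aurkb, a mitotic kinase (-1.84), Mcm2 (-1.31), Ccna2 (-1.31) and Gins2, another helicase factor (-1.13). On the same log2 scale, mock line 1 exceeded the mean of mock lines 2 and 3 by 1.35 for Brca1 and 1.13 for Rpa2. For Rad54l, which had passed the filter through that array alone, the excess was 2.01. For Brca2 and Palb2 the excess was 0.44 and 0.40, for the brighter and the other probe set of Rpa1 0.33 and 0.14, and for Rad52 -0.32. In line 2 the log2 change after 1 Gy was -0.06 for Rad54l, -0.06 and -0.38 for the brighter and the other probe set of Rpa2, -0.50 for Brca1 and -1.04 for Rpa1. Without either array of line 1, log2 fold changes were -1.14 for Rpa1, -0.96 for Brca1, -0.78 for Brca2, -0.60 for Palb2 and -0.25 for Rad54l, and for Rpa2 they were -0.25 and -0.50. None of these passed the test in that smaller fit (adjusted p of 0.210 for Rpa1, limma), in which 0 of all 21762 probe sets did. The part of replicating cells in the changes of Brca1, Rad54l and Rpa2 was not tested.

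**Figure D3:**
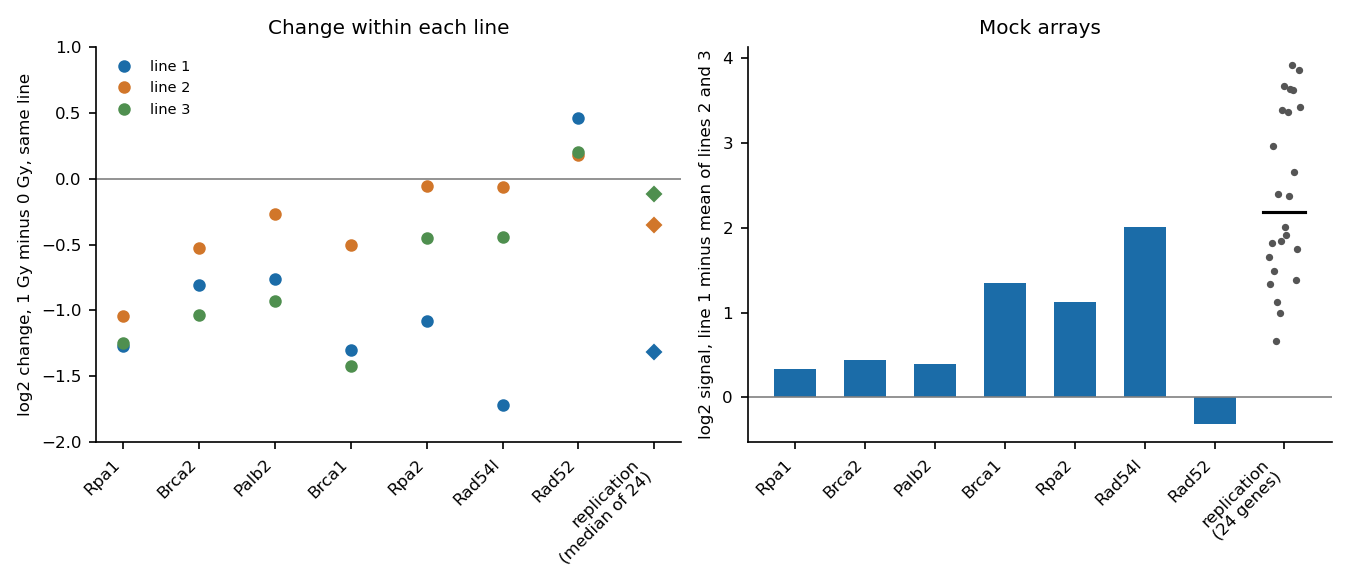
Left, log2 change from 0 to 1 Gy within each line (vertical axis) for the brightest probe set of 7 members and the median of 24 replication and mitosis genes (diamonds). Right, log2 signal of mock line 1 minus the mean of mock lines 2 and 3 (bars for members, points for the 24 genes, black bar at their median of 2.19). Rpa1 changes by -1.04 to -1.27 in every line with little excess in line 1, whereas Rad54l changes by -1.72 in line 1 and -0.06 in line 2.

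A further list held other genes of homologous recombination and the Fanconi anaemia pathway, which guides repair of crosslinked DNA. Of those tested, 6.67% passed the test, against 5.31% of all genes tested. Of 53 listed genes, 50 have a probe set with 1 gene name and 45 were tested by their brightest probe set. In that list 0 rose and 3 fell, against 2.11% and 3.2% of all 9678 genes tested (5.31% together), and at an unadjusted p under 0.05 there were 1 higher and 15 lower (8.36% and 16.7% of all genes). Lower signals in 3 of 3 lines were seen for 24 of the 45 and higher ones for 4 (41.3% and 23.7% of all genes), and 15 were lower and 1 higher without overlap between doses (20.6% and 12.3%). Of the 45, 5 had passed the filter through mock arrays alone and 1 through irradiated arrays alone (named below). These counts are therefore no evidence on the list as a whole. The median log2 fold change was -0.40, beside -0.11 over all genes. Those that fell were Rpa3, Helq and Abraxas1. Helq, a helicase that unwinds DNA at stalled forks, went from 435, 347 and 350 in mock lines 1 to 3 to 188, 201 and 151, a log2 fold change of -1.07 (adjusted p = 0.0371, limma). Abraxas1, the scaffold of a complex that holds Brca1 at ubiquitin marks, went from 413, 408 and 493 to 258, 256 and 253 (log2 fold change -0.77, adjusted p = 0.0414, limma). Neither gene overlapped between doses, and the log2 excess of mock line 1 was 0.32 for Helq and -0.12 for Abraxas1. A dimmer probe set of Abraxas1 had a log2 fold change of -0.60 (adjusted p = 0.126, limma). With any 1 array left out, 0 of the 45 were called, and of all 21762 probe sets tested only 0 to 94 were.

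With lines as blocks, 9 of the 45 fell and 1 rose, against 14.7% and 6.61% of all genes (21.3% together). Of the 45, 5 reached 100 on mock arrays only (Exo1, Rmi2, Eme1, Gen1 and Fanci) and 1 on irradiated arrays only (Fancc), so that they had entered the test through the dose at which they were higher, and the counts are no evidence on the list as a whole. The additional genes, named after their values were seen, were the nuclease and helicase Dna2 and the Fanconi genes Fanca, Fancb, Fancf, Fanci and Ube2t with lower signals and Fancc with higher signals. Fancb fell from 271, 188 and 138 in the mock lines to 104, 102 and 60.9, and Fancc, under 100 on all mock arrays, went from 80.1, 69.0 and 82.3 to 151, 115 and 131. The Fanconi complexes held 6 of the 10 called genes among 13 tested, and the recombinase and its paralogs held 0 among 7. The genes of break recognition had 1 of 5 called, the helicases and resolution enzymes 1 of 12, and the complex of Abraxas1 also 1 of 5. Outside the members, Rpa3 was the only 1 of 3 single-strand binding genes called.

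**Figure D4:**
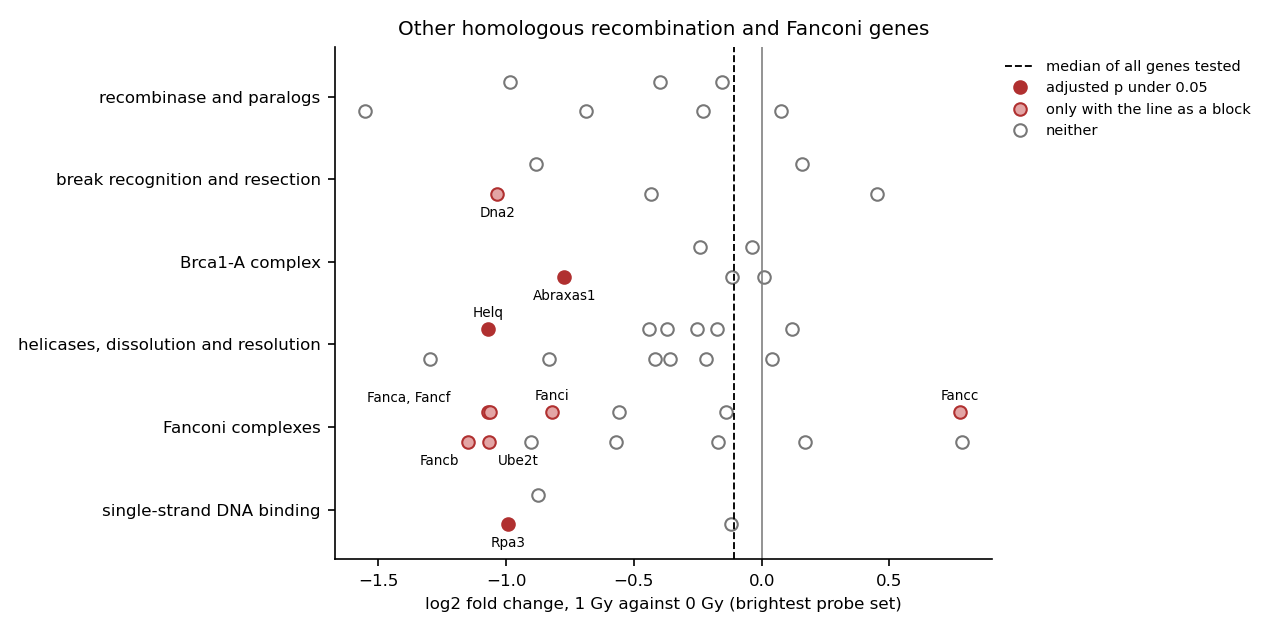
Log2 fold changes at 1 Gy against 0 Gy (horizontal axis) of 45 further genes by their role (vertical axis), each by its brightest probe set, with points staggered for legibility. Dark red marks the 3 genes with an adjusted p under 0.05, light red the 7 called with lines as blocks alone, and the dashed line the median over all genes tested (-0.11).

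By Pearson correlation of log2 signals over the 6 arrays, the 3 genes most like Rpa1 were Tmem42 (r = 0.995), Aamdc (0.994) and Hdac5, a histone deacetylase (0.993), among 8906 genes with a mean signal of 100 or more. The arrays share 3 lines and a dose effect common to many genes, and 195 genes had an r above 0.95. Of the other members, r with Rpa1 was 0.95 for Brca2, 0.92 for Palb2, 0.81 for Brca1, 0.68 for Rpa2, 0.64 for Rad54l and -0.89 for Rad52.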

How the data were processed

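Total RNA of 6 samples was hybridised to Affymetrix mouse whole-genome expression arrays, 1 array per line and dose. The deposited values are linear signal intensities per probe set, for which the processing notes of the submitters name MAS5. The authors' values have a mean of 500 on each array once the lowest and highest 2% are trimmed, and the RMA and quantile steps of the paper are not part of them. Here log2 of the signal was taken (values under 1 set to 1), 64 control probe sets were left out, and limma (version 3.58.1, R 4.3.3) was fitted, dose being the sole term, to the probe sets with a signal of at least 100 on any array. Adjusted p is Benjamini-Hochberg over all 21762 tested probe sets, and under 0.05 counted as a call. A gene was represented by its brightest tested probe set. The series' design text says that each line was used at both doses, and the sample titles give replicate numbers without naming lines, so that a number was taken for a line. Deviations from dose means correlated at 0.668 to 0.781 between arrays of the same number (3 pairs) and at -0.495 to -0.0525 otherwise (6 pairs), so that the blocked fit is given as well. Such deviations sum to 0 over the 3 arrays of a dose, so that the negative values largely follow from the positive ones and add little to them. The fits were also run on simulated arrays drawn independently, without the correlation between arrays of the same number. That run therefore does not give the error rates of either fit in these data. No detection flags were used, and the number of arrays limits the precision.

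Members, gene lists and motifs were chosen with earlier results of these data known. Named genes are all members, up to 4 called genes per direction of the other lists (the block's calls where there were none) and the 3 genes most like a called member. Rbbp8 is not reported here.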

Additional observations from a re-analysis of the deposited data

How the results depend on the processing

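Of the 11 member log2 fold changes, 0 turned sign under the alternatives run. The 2 of Rpa1 lost the call without the filter and with arrays or lines left out, and 1 of them also by the methods' test after adjustment. With the replicate block (the cell line as a paired factor), 3974 probe sets, 6 member probe sets and 10 further pathway genes were called, against 975, 2 and 3. Without a filter on dim probe sets the counts were 1, 0 and 0 (limma, with 5391, 4 and 11 under 0.05 before adjustment). By the methods' test at its own thresholds, which adjusts no p, they were 2850, 4 and 8, and after Benjamini-Hochberg adjustment 352, 1 and 1. Scaling to a common median gave 640 probe sets, of which 366 rose and 274 fell (419 and 556 as deposited), and 1 pathway gene. After quantile normalization 500 rose and 458 fell. A trend in the variance prior gave 1515 probe sets, and signals under 100 set to 100, chosen after seeing the data, 1476. With 1 array or 1 line left out, 0 to 94 probe sets, 0 members and 0 pathway genes were called by limma, and 3078 to 4608, 2 to 5 and 8 to 15 had a p under 0.05 before adjustment. The cause of these shifts was not tested. Genes near a signal of 100 have little signal over background.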
